A study of Oryza sativa Indica Group with 226 samples.

Results

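Rice lines with a high and with a low transcript level of the allantoinase gene ALN were compared in shoots of seedlings grown in the dark for 72 h after germination. Every line was a recombinant inbred line (RIL), an inbred descendant of 1 cross between the indica varieties Minghui 63 and Zhenshan 97, and all plants were untreated. The lines were chosen by the ALN signal itself: each probe set was centred within replicate number over the 220 line arrays, the 2 arrays of a line were averaged, and the 28 lines with the highest and the 28 with the lowest ALN value of 110 lines formed the high-ALN and low-ALN groups. The groups therefore held 56 of 110 lines and 112 of 226 arrays, and 54 lines lay in neither group. The 3 arrays of each parent took no part in the choice. Each sample is 1 array of RNA from whole shoot tissue (a bulk measurement), so fewer cells of a type and less RNA per cell cannot be told apart in any difference below. The labels say that the replicates of a line and of a parent are biological, and do not give the number of seedlings in a sample.

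Allantoinase opens the ring of allantoin and makes allantoate, a late step of the purine breakdown pathway. Plants oxidise xanthine to urate with xanthine dehydrogenase, convert urate to allantoin, and then release the nitrogen of the ring as ammonium through allantoate amidohydrolase, ureidoglycine aminohydrolase and ureidoglycolate amidohydrolase. The ammonium is taken up again by glutamine synthetase and glutamate synthase, which is how the pathway recycles nitrogen in seedlings and ageing leaves. In Arabidopsis, plants without allantoinase accumulate allantoin, and abscisic acid and jasmonate responses have been described in them, so genes of these hormones were included.

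ALN was measured by 1 probe set, and its levels are given as a description because they chose the lines. The mean of the 2 arrays of a line ran from 7.39 to 8.07 on the log2 scale in the high-ALN lines, with a median of 7.51, and from 5.95 to 6.85 in the low-ALN lines, with a median of 6.56. The lines in between had a median of 7.09, and the values formed a continuous range with no gap at either edge. RIL167, the lowest of the high-ALN lines, had a centred value of 0.316, and RIL180 just outside had 0.311. At the low edge 3 lines were tied at -0.229, of which the one with the lowest line number, RIL077, was taken. The groups differed by 1.07 on average. The ALN values of replicate 1 and replicate 2 had a Pearson correlation of 0.70 over the 110 lines (Spearman 0.67), and the points of this correlation share the cross and the array type. Choosing on replicate 1 alone and on replicate 2 alone gave 17 shared high lines and 18 shared low lines of 28, and no line was high on 1 replicate and low on the other.

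The parents measured 9.26, 9.20 and 9.16 in Minghui 63 and 6.39, 5.59 and 6.59 in Zhenshan 97. All 3 arrays of Minghui 63 lay above the highest line array, 8.42, and 8 of 110 lines lay above the middle between the parents, 7.70. Levels here are before centring, and the mean of all lines was 7.354 on replicate 1 arrays, 6.795 on replicate 2 arrays and 7.07 over both. The part of this shift in the counts against parental levels was not tested. The high-ALN lines did not reach the level of their high parent, while 16 lines lay within the range of the 3 Zhenshan 97 arrays. The plot of ALN levels shows this order.

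**Figure D1:**
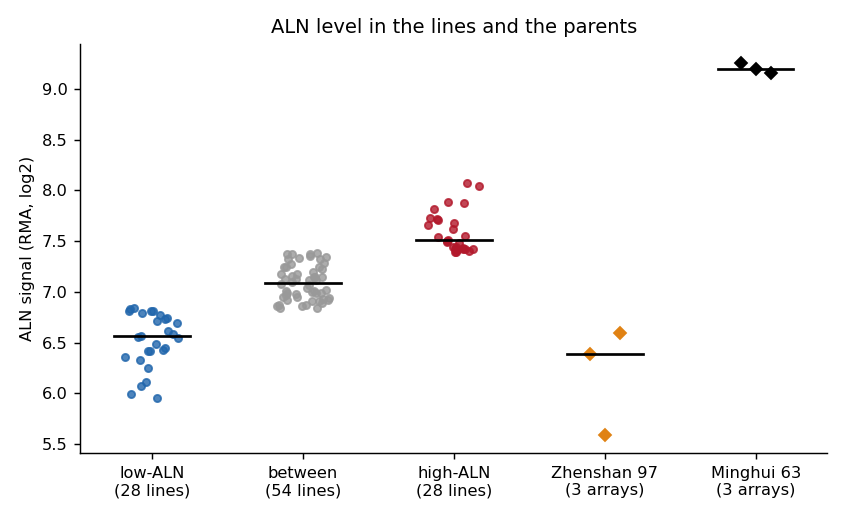
ALN signal (RMA, log2) as the mean of 2 arrays for each line in the low-ALN, middle and high-ALN groups, and for each parental array; horizontal bars are medians. The high-ALN lines run from 7.39 to 8.07, below the 3 Minghui 63 arrays at 9.16 to 9.26, and the groups were chosen on these values.

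Array quality differed between the replicates and, for replicate 2, between the groups. The 3' minus 5' signal of 4 control transcripts (actin, GAPDH, ubiquitin and cyclophilin), which rises when RNA is broken or incompletely copied, was 0.503 ± 0.107 (SD, n = 110) on replicate 1 arrays and 1.01 ± 0.654 on replicate 2 arrays. On replicate 1 its mean was 0.502 in high-ALN and 0.518 in low-ALN lines, whereas on replicate 2 it was 0.792 ± 0.432 in high-ALN and 1.18 ± 0.738 in low-ALN lines (SD, n = 28 each). All lines were kept. For 102 lines the 2 arrays correlated best with each other, and for the other 8 the best match was an array of a near-identical line. There were 11 near-identical pairs (r above 0.7 between line profiles): 2 fell wholly into the high-ALN group and 2 wholly into the low-ALN group, while RIL047 (0.806) and RIL048 (-0.244) fell into opposite groups. A fit with the 3' minus 5' signal as a term (the quality term) and a fit with 1 line of each pair are given beside the named calls they end.

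**Figure D2:**
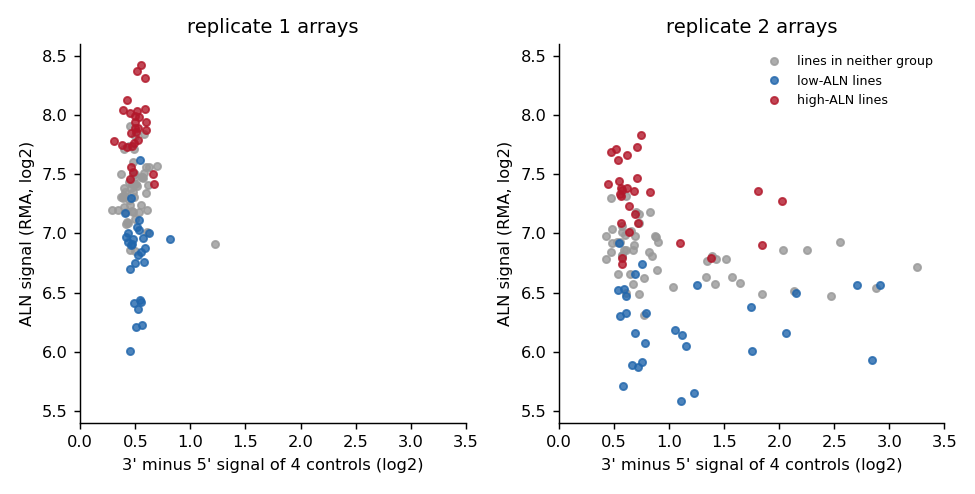
ALN signal (RMA, log2) against the mean 3' minus 5' signal of 4 control transcripts (log2), with 1 point per line, on replicate 1 arrays (left) and replicate 2 arrays (right). Replicate 1 arrays lie between 0.285 and 1.22 on the horizontal axis and replicate 2 arrays between 0.425 and 3.26, and more low-ALN than high-ALN lines lie far to the right.

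Over all probe sets with a mean of at least 5, 4141 of 27734 differed between the groups (limma, 28 against 28 line means, Benjamini-Hochberg adjusted p under 0.05), which is 14.9% of those tested. Of these, 2594 (9.35%) were higher and 1547 (5.58%) lower in high-ALN lines, and 303 (1.09%) differed by at least 0.5 on the log2 scale, 105 higher and 198 lower. Neither split was stable: without replicate 2 the calls were 1050 higher and 1137 lower, and the calls of at least 0.5 were 322 higher and 240 lower with array median centring and 561 higher and 410 lower without replicate 1. These genes were read on the same arrays that chose the lines, so the comparison was also made across replicates. With lines chosen on replicate 2 and measured on replicate 1, 2111 probe sets (7.61%) were called. With lines chosen on replicate 1 and measured on replicate 2, the arrays with the wide spread of 3' minus 5' signal, 21 (0.0757%) were called, and 1741 had an unadjusted p under 0.05. With the 3' minus 5' signal as a term the count was 1944 (7.01%), with 1 line of each near-identical pair it was 2681, and along the 54 lines in neither group the slope on ALN gave 0 calls (0.0%) with limma, with 2810 at an unadjusted p under 0.05. These 54 lines span centred ALN values of only -0.229 to 0.311, so this slope has little power. The part of array quality in the count was not tested further.

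Genes of purine breakdown other than ALN were called about as often as other genes. Of 9 measured members, 2 were called higher in high-ALN lines and 0 lower, near the share of all genes (2536 of 14620, 17.3%, with 1 probe set per gene), and their median difference was 0.07 against 0.02 for all genes. With lines chosen on replicate 2 and measured on replicate 1 the list's median was -0.06, so its sign was not settled. URH2, a nucleoside hydrolase gene of the step that frees purine bases, ran from 9.05 to 10.18 in high-ALN lines (median 9.86) and from 8.62 to 10.04 in low-ALN lines (median 9.50). The ranges overlapped, and 23 of 28 high-ALN lines lay above the low-ALN median (difference 0.40, SE 0.089, adjusted p = 0.00154). The call held with lines chosen on replicate 2 and measured on replicate 1 (0.18, adjusted p = 0.0212) and with the quality term (0.23, adjusted p = 0.0131), but not the other way round (0.30, adjusted p = 0.846). UREF, an accessory gene of urease, the enzyme that frees ammonium from urea, ran from 7.23 to 7.52 against 7.05 to 7.48, and its difference of 0.10 (SE 0.028, adjusted p = 0.0119) was not called in either choice by single replicates (adjusted p = 0.837 and 0.207) or with 1 line of each near-identical pair (0.09, adjusted p = 0.0548).

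The remaining 7 pathway genes did not pass the test. AAH, allantoate amidohydrolase and the enzyme right after ALN, had medians of 6.18 in high-ALN and 6.08 in low-ALN lines (difference 0.13, SE 0.059, adjusted p = 0.135). UGLYAH, which acts next, had medians of 10.47 and 10.51 (-0.08, SE 0.037, adjusted p = 0.116). XDH, xanthine dehydrogenase before ALN in the pathway, had medians of 9.60 and 9.49 with both groups spanning about the same range, 8.86 to 10.24 and 8.82 to 10.26. UAH, the last amidohydrolase, differed by 0.05 (adjusted p = 0.708) over both replicates, and by -0.21 with lines chosen on replicate 2 and measured on replicate 1 (adjusted p = 0.00165), so its direction was not settled. The urease accessory gene UREG (0.09), AMPD, the AMP deaminase gene (-0.03), and the nucleoside hydrolase gene URH1 (-0.06) were not called. Between the parents 0 of the 9 genes were called by limma, beside 1846 of 14620 over all genes. ALN differed by 3.02 (SE 0.26, adjusted p = 0.000554), and the largest parental difference of the 9 was 0.59 for AMPD (adjusted p = 0.164).

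The called genes of nitrogen uptake and assimilation were all higher in high-ALN lines. Of 24 genes on the array 14 passed the minimum, 4 were called higher and 0 lower in high-ALN lines, and the median difference was 0.06. Over all genes 17.3% were called, 1639 higher and 897 lower. The 10 others had means of 3.05 to 4.94, among them the urea transporter gene DUR3 (4.69 in high-ALN and 4.26 in low-ALN lines). AMT1-1, an ammonium transporter gene, ran from 6.92 to 8.42 in high-ALN lines (median 7.98) and from 6.93 to 8.17 in low-ALN lines (median 7.64). The difference was 0.34 (SE 0.087, adjusted p = 0.00562), and 26 of 28 high-ALN lines lay above the low-ALN median in spite of the overlap. GDH1, a glutamate dehydrogenase gene, ran from 9.18 to 10.63 against 8.72 to 10.54 (0.42, SE 0.11, adjusted p = 0.00736).

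Cytosolic glutamine synthetase GLN1-1 had medians of 12.32 and 12.05 (0.26, SE 0.074, adjusted p = 0.0151), and the nitrate transporter gene NRT2.3 had medians of 5.76 and 5.55 (0.23, SE 0.069, adjusted p = 0.0187). All 4 calls were lost when lines were chosen on 1 replicate and measured on the other. With the quality term the adjusted p was 0.0681 for AMT1-1 and 0.126 for GLN1-1, while GDH1 (0.18, adjusted p = 0.0497) and NRT2.3 (0.23, adjusted p = 0.0396) were still called. NRT2.3 was not called with 1 line of each near-identical pair (0.18, adjusted p = 0.0808). Plastid glutamine synthetase GLN2 lies 154 genes from ALN on chromosome 4 and differed by -0.08 (SE 0.13, adjusted p = 0.736), by -0.31 with the quality term (adjusted p = 0.0279) and by -0.34 with lines chosen on replicate 2 and measured on replicate 1 (adjusted p = 0.000729). Fd-GOGAT, the ferredoxin-dependent glutamate synthase gene that works with GLN2, differed by -0.05, the nitrate reductase gene NIA1 by 0.01 and the arginase gene ARG1 by 0.02, with no call. Between the parents 3 of the 14 were called, beside 1846 of 14620 over all genes. AMT1-1 was higher in Minghui 63 by 1.13 (adjusted p = 0.0371), and GLN2 (-1.09) and GLN1-2 (-0.83) were lower.

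**Figure D3:**
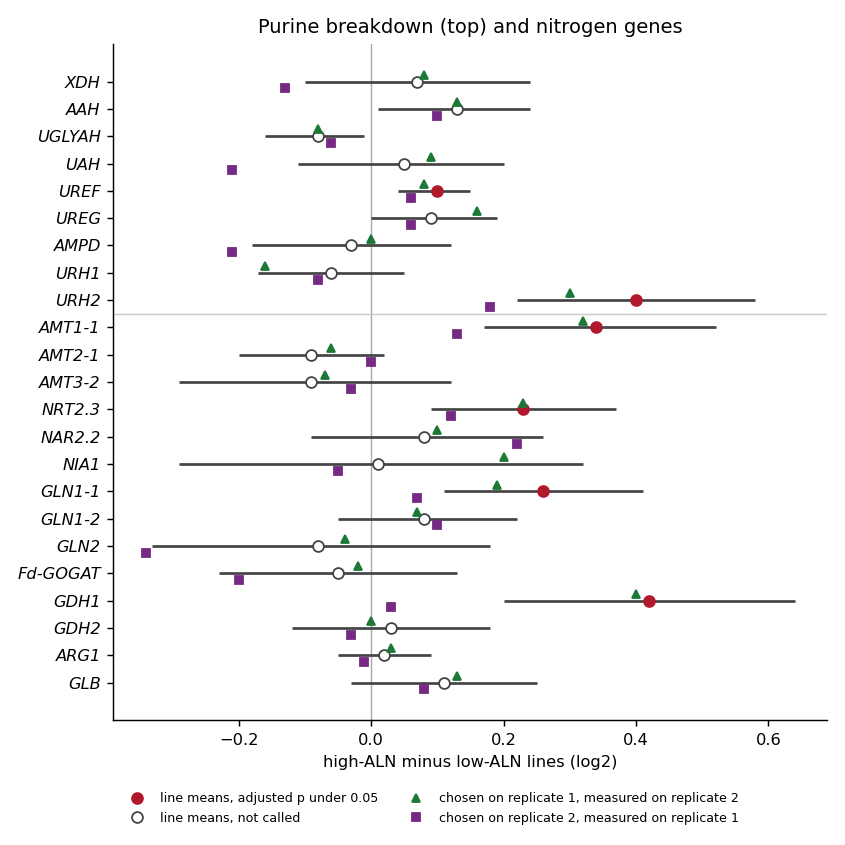
Difference between high-ALN and low-ALN lines (log2) for the 9 purine breakdown genes (top) and 14 nitrogen genes (bottom). Circles are line means with 95% intervals, red where the adjusted p is under 0.05. Triangles and squares are the differences with lines chosen on 1 replicate and measured on the other. The 6 red genes lie between 0.10 and 0.42, and UAH and GLN2 have squares at -0.21 and -0.34.

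ALN lies near the end of chromosome 4, with 2533 annotated protein-coding genes before it and 106 after it, and in a cross, genes close together on a chromosome are usually inherited together. On chromosome 4, 239 of 1442 probe sets were called (16.6%), against 15% to 19.4% over all chromosomes. Among the 60 genes on each side of ALN, 20 of 87 probe sets were called (23.0%), 18 of them higher in high-ALN lines. The share was 25.9% (7 of 27) more than 60 genes after ALN, 15.6% (14 of 90) at 61 to 200 genes before it, 19.9% (50 of 251) beyond that up to 600 genes and 15.1% (148 of 979) more than 600 genes before it, so it did not rise steadily toward ALN. With lines chosen on replicate 2 and measured on replicate 1 the share within 60 genes was 14.9% (13 of 87), and more than 600 genes before ALN it was 7.35%. In the opposite choice 0 of 87 within 60 genes were called by limma. The median size of the difference within 60 genes was 0.12, against 0.097 over chromosome 4 and 0.09 to 0.12 over single chromosomes.

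Right beside ALN the differences were small. Of the 5 probe sets within 5 genes of ALN, 1 was called, that of LOC4337430, which lies 3 genes after ALN and had medians of 6.04 and 5.77 (0.18, SE 0.063, adjusted p = 0.0393). The other 4 differed by -0.14 to 0.12. APG4B, an autophagy protease gene 9 genes after ALN, had medians of 9.02 and 8.85 (0.19, SE 0.055, adjusted p = 0.0156), and GLU6, an endoglucanase gene 40 genes before ALN, had medians of 5.86 and 5.54 (0.27, SE 0.065, adjusted p = 0.00309). APG4B lost the call with the quality term (0.10, adjusted p = 0.181), and GLU6 lost it with 1 line of each near-identical pair (0.19, adjusted p = 0.0895). GLU6 differed the other way between the parents, by -1.10 (adjusted p = 0.00869), so Zhenshan 97 is its high parent. PORA, the protochlorophyllide reductase gene 12 genes before ALN, had medians of 11.98 and 11.97 and differed by -0.02 (adjusted p = 0.93), with a parental difference of -0.88 (adjusted p = 0.0085).

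Genes farther from ALN that were repeatable over lines show how parental levels fell among the groups. LOC4337241, 188 genes before ALN, was 4.89 higher in Minghui 63 (adjusted p = 0.000626), and its line means left a gap between 5.28 and 8.40, with 51 lines below and 59 above. The upper, Minghui 63-like level was present in 19 of 28 high-ALN and in 12 of 28 low-ALN lines, and the group difference of 1.03 was not called (SE 0.59, adjusted p = 0.236). For LOC4337198, 228 genes before ALN, 15 of 28 lines in each group lay on the Minghui 63 side (difference -0.03, adjusted p = 0.96). LOC4337238, 191 genes before ALN, had medians of 8.52 and 7.67 (0.54, SE 0.14, adjusted p = 0.00518), and 18 of 28 high-ALN against 6 of 28 low-ALN lines lay on the Minghui 63 side of the middle between the parents. OsSK3, a shaggy-like kinase gene 268 genes before ALN, was higher in high-ALN lines by 0.32 (adjusted p = 0.00819) and in Minghui 63 by 1.38. LOC4337135, 296 genes before ALN, was lower in high-ALN lines (-0.41, adjusted p = 0.00501) and in Minghui 63 (-1.93), with 7 of 28 high-ALN and 0 of 28 low-ALN lines on the Minghui 63 side. LOC4337163, 271 genes before ALN, was not called (-0.39, adjusted p = 0.278). These 6 genes were picked after their values were seen, as those called between the parents and repeatable over lines within 300 genes of ALN.

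**Figure D4:**
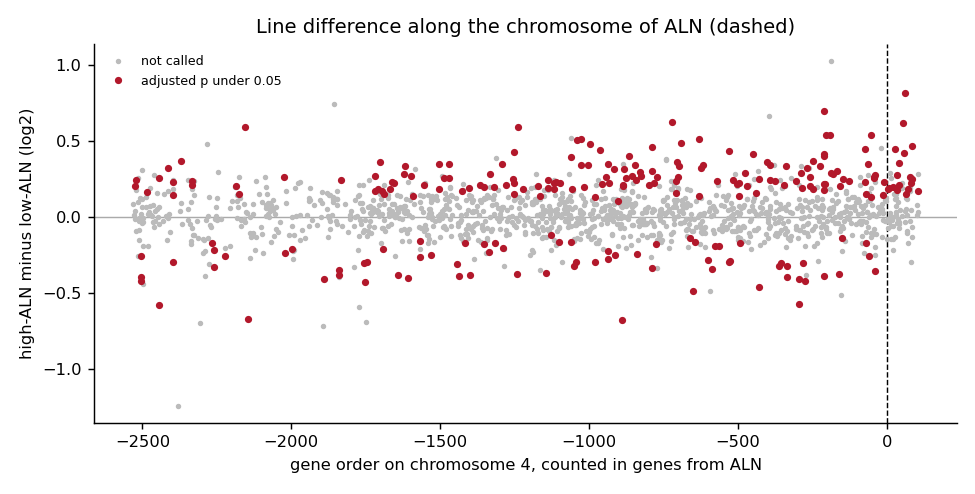
Difference between high-ALN and low-ALN lines (log2) for each probe set on chromosome 4 against the gene order counted from ALN (dashed line at 0). Red points have an adjusted p under 0.05. Calls are spread along the chromosome, and within 60 genes of ALN 18 of the 20 called probe sets lie above 0.

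Among called genes with a usable symbol, the 3 largest differences were in genes of iron acquisition, all lower in high-ALN lines. Over all probe sets NAS1 had the largest called difference, and unnamed probe sets lay among those that follow. The iron list was drawn up after these values were seen, so it is a description. Of 13 genes on the array 12 passed the minimum, 7 were called lower and 3 higher, beside 17.3% called over all genes. The median difference of the list was -0.80. Grasses take up iron by making nicotianamine with nicotianamine synthase, turning it into mugineic acids through nicotianamine aminotransferase, and bringing the iron complex back in. NAS1, a nicotianamine synthase gene, ran from 2.85 to 10.86 in high-ALN lines with a median of 5.63, and from 4.10 to 12.80 in low-ALN lines with a median of 10.02. The groups overlapped, but 26 of 28 high-ALN lines lay below the low-ALN median (difference -3.49, SE 0.59, adjusted p = 6.06e-05). The lowest values of both groups lie within the means of 17 control probe sets for foreign tags (2.39 to 4.63), so the size of the difference is uncertain. NAS1 was called in both choices by single replicates, at -3.00 (adjusted p = 0.046) and -3.11 (adjusted p = 0.002).

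The other 6 iron genes called lower included synthesis, uptake and regulator genes. NAS2, another nicotianamine synthase gene, ran from 5.38 to 10.81 in high-ALN and from 5.71 to 12.34 in low-ALN lines, with medians of 6.5 and 9.64 (-2.47, SE 0.45, adjusted p = 0.000197). NAAT1, nicotianamine aminotransferase, had a median of 8.52 in high-ALN lines, and 26 of 28 lay below the low-ALN median (-1.26, SE 0.30, adjusted p = 0.00279). Among the transporters, IRT2 had medians of 6 and 7.65 (-1.59, SE 0.36, adjusted p = 0.00181) and IRT1 medians of 4.55 and 5.28 (-1.06, SE 0.24, adjusted p = 0.00225). The high-ALN median of IRT1 lies within the means of 17 control probe sets for foreign tags (2.39 to 4.63), so the size of its difference is uncertain. For Nramp1, a metal transporter gene, 0 of 28 high-ALN lines lay above the low-ALN median of 10.53 (-1.08, SE 0.24, adjusted p = 0.00145). BHLH063, a basic helix-loop-helix gene listed under the synonyms IRO3 and OsIRO2, differed by -0.54 (SE 0.18, adjusted p = 0.0357). These 6 genes were called with lines chosen on replicate 2 and measured on replicate 1 (-0.82 to -2.35) and with the quality term, and in the opposite choice they lay at -0.48 to -1.95 without a call.

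A gene of vacuolar iron transport went the other way. VIT2, a vacuolar iron transporter gene, ran from 5.60 to 7.38 in high-ALN lines and from 4.58 to 6.73 in low-ALN lines, and 27 of 28 high-ALN lines lay above the low-ALN median of 5.62 (0.83, SE 0.14, adjusted p = 0.000107). VIT2 was called in both choices by single replicates, at 0.85 (adjusted p = 0.0209) and 0.90 (adjusted p = 0.000521). VIT1 (0.20, adjusted p = 0.018) and NAS3 (0.20, adjusted p = 0.0213) were higher by less and lost the call with the quality term (adjusted p = 0.0956 and 0.0858). NRAMP5, a manganese transporter gene, had medians of 8.84 and 8.85 (adjusted p = 0.974), and IDEF1, a regulator of the iron deficiency response, differed by -0.08 (adjusted p = 0.334). The transporter gene YSL15 stayed below the minimum with means of 4.48 and 5.08.

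The parental arrays did not follow the order of the line groups. NAS1 measured 3.44, 3.37 and 5.45 in Minghui 63 and 3.39, 2.46 and 3.78 in Zhenshan 97, which is below the median of both line groups, and 5 of these 6 values lie within the means of the tag controls. NAAT1 was 3.07 higher in Minghui 63 (adjusted p = 0.0187), the parent with high ALN, whereas it was lower in high-ALN lines. VIT2 differed by -1.23 between Minghui 63 and Zhenshan 97 (adjusted p = 0.0445). All 6 parental arrays, at 7.58 to 9.47, lay above the highest line of both groups, 7.38. RIL241, in neither group, had a VIT2 mean of 8.18, within the parental range. IRT1 is also in the root marker list. The summed log2 signal of the 5 root markers ran from 24.3 to 28.58 in high-ALN (median 26.4) and from 25.08 to 29.75 in low-ALN lines (median 27.1). This sum includes IRT1 itself, which differed by -1.06, while NRT2.3 differed by 0.23. Lsi1, the silicon channel gene of roots, had medians of 8.48 in high-ALN and 8.36 in low-ALN lines (adjusted p = 0.453). Lsi2 and NRT2.2 had means of 3.53 and 4.13, within the means of the tag controls. The part of root tissue in the iron genes was not tested.

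**Figure D5:**
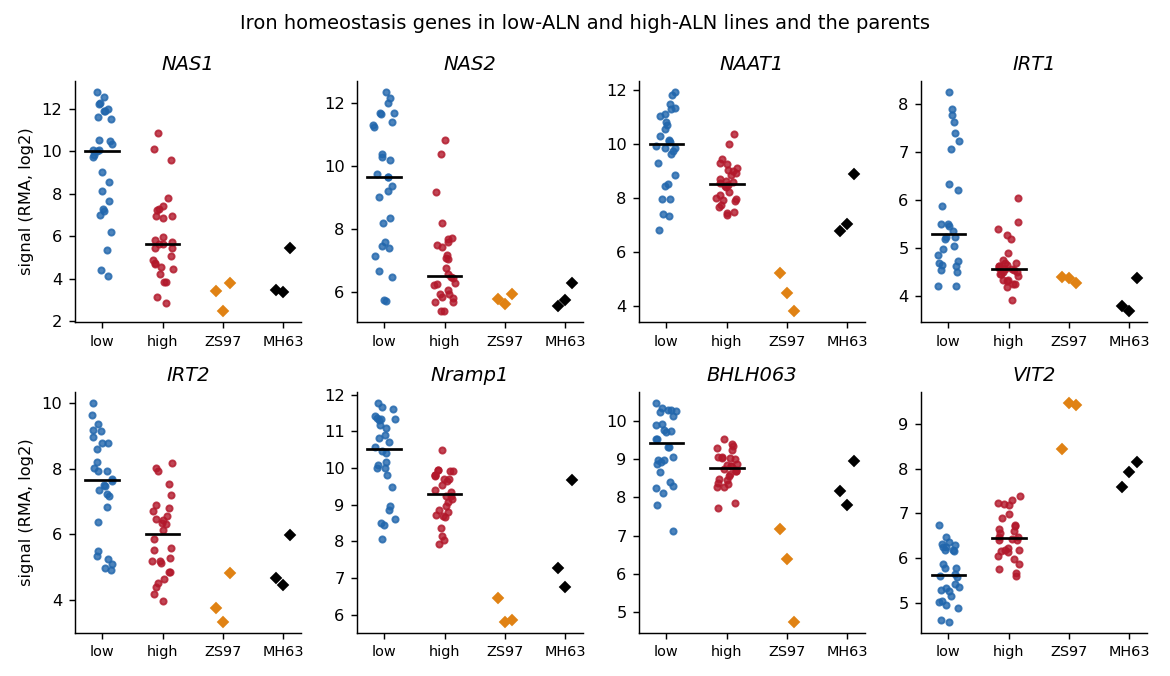
Signal (RMA, log2) of 8 iron homeostasis genes in low-ALN and high-ALN lines (1 point per line, mean of 2 arrays, bar at the median) and in each array of Zhenshan 97 (ZS97) and Minghui 63 (MH63). NAS1 has medians of 10.02 in low-ALN and 5.63 in high-ALN lines, VIT2 has medians of 5.62 and 6.46, and the parents lie below the high-ALN median of NAS1 and above all plotted lines for VIT2.

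Beyond the iron genes, the largest named differences toward low-ALN lines included water channel, stress and peroxisome genes. OsPIP2;7, a plasma membrane aquaporin gene, ran from 5.68 to 9.84 in high-ALN lines (median 8.12) and from 7.77 to 11.05 in low-ALN lines (median 9.52), a difference of -1.40 (SE 0.27, adjusted p = 0.000317), and by -3.23 between Minghui 63 and Zhenshan 97. PM19L1, a membrane protein gene of the abscisic acid list, had medians of 5.49 and 7.06 (-1.34, SE 0.29, adjusted p = 0.00104). The metallothionein gene MT4A had medians of 9.30 and 10.41 (-1.09, SE 0.23, adjusted p = 0.000912). All 3 were also called with lines chosen on replicate 2 and measured on replicate 1, and none in the opposite choice (adjusted p = 0.14, 0.837 and 0.476). OsPEX11-4, of the family that divides peroxisomes, had medians of 6.44 and 7.12 (-0.68, SE 0.12, adjusted p = 9.12e-05) and was not called across replicates (adjusted p = 0.359 and 0.105).

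Toward high-ALN lines, LOX1.1, a lipoxygenase gene, ran from 6.46 to 9.68 (median 8.76) against 5.22 to 9.32 (median 7.56), a difference of 1.02 (SE 0.23, adjusted p = 0.00228). APX1, an ascorbate peroxidase gene, had medians of 11.38 and 10.68, and 27 of 28 high-ALN lines lay above the low-ALN median (0.58, SE 0.12, adjusted p = 0.000689). MHZ4, a gene for a chloroplast protein needed for abscisic acid synthesis, had medians of 8.06 and 7.58 (0.50, SE 0.093, adjusted p = 0.000262). The cystatin gene OC-VIII had medians of 9.57 and 9.16 (0.48, adjusted p = 0.00119), and the expansin gene EXP1 9.73 and 9.15 (0.60, adjusted p = 0.0227). These 5 genes kept the call with lines chosen on replicate 2 and measured on replicate 1, and none did in the opposite choice (adjusted p = 0.43 to 0.807). GluTR, the glutamyl-tRNA reductase gene that starts chlorophyll synthesis (0.65), and NYC1, a chlorophyll b reductase gene (0.45), lost it there and with the quality term (adjusted p = 0.0914 and 0.232). ARF24, an auxin response factor gene, differed by 0.50, and across replicates by 0.55 (measured on replicate 2, adjusted p = 0.749) and 0.10 (measured on replicate 1, adjusted p = 0.493). OsRPT1b, a proteasome ATPase gene, differed by 0.47 (adjusted p = 0.0492), across replicates by 0.38 (adjusted p = 0.877) and -0.07 (adjusted p = 0.528), and by 0.06 with the quality term (adjusted p = 0.515). OsRPT1b and NYC1 were not called with 1 line of each near-identical pair (adjusted p = 0.0763 and 0.0802).

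The called members of the jasmonate list were all higher in high-ALN lines, 8 of 29 measured, beside 17.3% called over all genes, most of them higher. The median difference over the list was 0.16. The list was matched by gene symbol, and whether its lipoxygenase genes LOX1.1 and LOX5 serve jasmonate synthesis was not tested. With the quality term 4 were called, with lines chosen on replicate 2 and measured on replicate 1 LOX1.1 alone, and in the opposite choice 0. JAZ6, a repressor of jasmonate responses, had medians of 10.19 and 9.80 (0.29, adjusted p = 0.0129), NINJA1, an adaptor of these repressors, 9.22 and 8.93 (0.27, adjusted p = 0.0122), and the lipoxygenase gene LOX5 9.59 and 9.33 (0.27, adjusted p = 0.0051). With the quality term JAZ6 (adjusted p = 0.147) and NINJA1 (adjusted p = 0.15) were not called. The list contains enzymes and repressors, and the called members come from both. The synthesis gene AOS1 (0.23), the receptor gene COI1A (0.25), and the repressor genes JAZ3 (0.20) and JAZ7 (0.16) make up the 8. The repressor genes did not all go the same way. JAZ9 (-0.40, adjusted p = 0.109), JAZ10 (-0.21), JAZ12 (-0.14) and JAZ11 (-0.03) were lower in high-ALN lines without a call, and the other JAZ genes were at 0.03 to 0.29.

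The abscisic acid and late embryogenesis list split, with 4 higher and 5 lower of 24 and a median of -0.06, beside 17.3% called over all genes. With the quality term 1 was higher and 4 lower, with 1 line of each near-identical pair 2 and 4, and 1 each with lines chosen on replicate 2 and measured on replicate 1. In the opposite choice 0 were called by limma. The lower members were PM19L1, the late embryogenesis gene EM (-0.54, adjusted p = 0.0362), ABA8OX2, which breaks down abscisic acid (medians 8.73 and 9.16, -0.41, SE 0.084, adjusted p = 0.000629), the transcription factor gene BZIP23 (-0.21) and the kinase gene SAPK1 (-0.16). The higher members were the receptor gene PYL5 (0.22, adjusted p = 0.0277) and the kinase genes SAPK4 (0.16), SAPK5 (0.19) and SAPK8 (0.20). With the quality term SAPK1 (adjusted p = 0.184), PYL5 (0.294), SAPK4 (0.235) and SAPK8 (0.504) were not called. SAPK5 lies 73 genes after ALN on chromosome 4. The dehydrin genes RAB21, RAB16B, RAB16C and RAB16D were at -0.14 to -0.34 and not called.

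Of 23 measured photosynthesis and chlorophyll genes, 2 were higher and 6 lower in high-ALN lines, with a median of -0.11, beside 17.3% called over all genes. With the quality term 0 were higher and 7 lower, and GluTR and CHLG (adjusted p = 0.153) lost the call. FBPase, fructose-1,6-bisphosphatase, ran from 7.56 to 8.94 in high-ALN and from 8.18 to 9.56 in low-ALN lines, and 0 of 28 high-ALN lines lay above the low-ALN median of 8.98 (-0.55, SE 0.086, adjusted p = 2.05e-05). cdsp32, a chloroplast thioredoxin gene, ran from 9.60 to 10.65 against 10.03 to 10.76 (-0.42, SE 0.063, adjusted p = 1.03e-05) and was called in both choices by single replicates (-0.38 and -0.34). PSB28 (-0.39), CAO, chlorophyllide a oxygenase (-0.37), RCABP69, a chlorophyll-binding protein gene (-0.29), and rbcS, the small subunit of Rubisco (-0.25), were the other lower members, and GluTR and CHLG, chlorophyll synthase (0.39), the higher ones. Between the parents 17 of the 23 were called, beside 1846 of 14620 over all genes. The shoot markers rbcS and CAB2R were strong in both groups, with medians of 12 and 12.3 for rbcS and 12.76 and 12.90 for CAB2R.

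Of 5 root markers 3 were measured and 2 were called, beside 17.3% called over all genes. They went in opposite directions: NRT2.3 was higher and IRT1 lower. Of 9 seed storage genes 3 passed the minimum and 0 were called by limma (0 at an unadjusted p under 0.05). The 6 below the minimum had means of 2.09 to 4.23. The summed log2 signal of all 9 ran from 34.08 to 36.08 in high-ALN and from 34.20 to 36.12 in low-ALN lines. Of 3 ethylene signalling genes (EIL1A, EIL1B and EIN2) 0 were called (0 at an unadjusted p under 0.05). EIL1B differs by -4.14 between the parents (adjusted p = 0.000252) and its line means ran from 3.8 to 8.41 in high-ALN and from 4.01 to 9.26 in low-ALN lines, with medians of 7.05 and 6.97.

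Genes that separated the line groups in the same direction as the parents were more frequent than the opposite. ALN, which chose the lines, is itself higher in Minghui 63, and the part of that choice in the shared direction was not tested. Between the parents 2916 of 27734 probe sets were called (10.5%). Of the 4141 called between the line groups 685 were among them, 16.5% of the line calls and 23.5% of the parental calls, and 644 had the same sign and 41 the opposite sign. Of the 303 line calls of at least 0.5, 130 were called between the parents, 118 with the same sign. The count of 685 depended on single parental arrays: it was 312 without Minghui 63 replicate 1, 269 without Minghui 63 replicate 2, 344 without Zhenshan 97 replicate 1 and 364 without Zhenshan 97 replicate 2. It was 595 without Minghui 63 replicate 3 and 702 without Zhenshan 97 replicate 3. The parental calls in these fits ran from 1163 to 3145, and 21.9% to 23.7% of them were also line calls. The 3' minus 5' signal of the parental arrays was 1.01, 1.0 and 0.87 in Minghui 63 and 0.72, 0.60 and 1.22 in Zhenshan 97.

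A set of 18 probe sets was called, with the same sign, in both choices by single replicates, where the arrays that chose the lines did not enter the test. They were NAS1, VIT2, both probe sets of cdsp32 and 14 without a usable gene name, and 10 of the 18 were called between the parents, 9 with the same sign. LOC4352286 on chromosome 12 had the smallest adjusted p in both choices. It ran from 6.17 to 8.78 in high-ALN lines (median 7.85) and from 8.14 to 9.66 in low-ALN lines (median 9.20), and 0 of 28 high-ALN lines lay above the low-ALN median (-1.27, SE 0.14, adjusted p = 8.76e-09). It differed by -1.07 (adjusted p = 0.000605) and -1.13 (adjusted p = 5.66e-05) across replicates and by -4.12 between the parents (adjusted p = 0.00291). LOC4342269 on chromosome 7 had medians of 8.56 and 9.24 (-0.68, SE 0.074, adjusted p = 8.76e-09). In the other direction, all 28 high-ALN lines lay above the low-ALN median for LOC4338442 on chromosome 5 (medians 5.62 and 5.11, difference 0.61, SE 0.083, adjusted p = 2.28e-06) and for LOC4336538 (medians 8.98 and 8.55, 0.40, SE 0.055, adjusted p = 2.74e-06), which lies on chromosome 4, 866 genes before ALN. Neither gene has a usable name in the annotation used here, and these 4 were chosen after their values were seen.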

How the data were processed

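Shoots were profiled on 226 Affymetrix Rice Genome arrays, 2 per line and 3 per parent. The authors deposited 1 log2 value per probe set and array, made with RMA and the affy package per the submitters' processing notes. The sources used here give neither version nor settings for them. The values were used as given; array medians lay between 4.77 and 5.07, and the number of arrays limits the precision. Control probe sets, the ALN probe set and probe sets with a mean under 5 were left out, which left 27734. In the array's annotation 22436 probe sets had a single gene, 34850 had no gene, and 95 with more than 1 gene were left unnamed. All 22436 were found in the table of assembly ASM3414082v1, used for symbols, chromosomes and gene order only.

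Line means were compared with limma 3.58.1 (lmFit, eBayes) in R 4.3.3, and all adjusted p-values are from limma with Benjamini-Hochberg adjustment over all tested probe sets. Tables and plots used Python with pandas, numpy, scipy and matplotlib. The test was checked on simulated line means of 27734 probe sets. Of these, 93 of 100 with a change of 0.5 and 99 of 100 with a change of 1 were called. Another 17 with no change were also called. Each probe set was drawn independently, 200 were changed and the groups were fixed. How correlation between probe sets, the choice of lines on ALN, near-identical lines and array quality would alter these counts was not tested. A gene was called repeatable when its repeatability over lines, from the variance among line means against that within lines, was at least 0.5. The lines, the gene lists and the tests were chosen with earlier results of these data known. Named genes were, with 1 probe set per gene (the highest mean), every measured purine and nitrogen gene, the 10 largest called named differences in each direction, called named genes within 60 genes of ALN, and up to 4 called members of each other list by size. Iron genes, further list members, repeatable genes near ALN and genes called in both replicate choices were added after their values were seen. Replicate numbers were used as a block by centring. Alternatives were other minima, array median centring, leaving out replicates, choice and measurement on different replicates, 55 against 55 lines, slopes on ALN, near-identical pairs, arrays as units with and without the replicate term, a term for the 3' minus 5' signal, lines with an array that correlated under 0.9 with the others left out, and the other tied lines.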

Additional observations from a re-analysis of the deposited data

How the results depend on the processing

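The count of 4141 calls between the line groups was 8157 with array median centring (69.0% higher, against 62.6%), 2187 to 2415 without a replicate (48.0% higher without replicate 2), 21 and 2111 with lines chosen on 1 replicate and measured on the other, 2681 with 1 line of each near-identical pair, 1944 with the 3' minus 5' term, 6301 without the lines with an array apart and 0 along the 54 lines in between, the last 3 chosen after seeing the data. On chromosome 4 the count of 239 became 434, 127 to 137, 1 and 124, 118 and 0 under the same settings, except near-identical pairs and arrays apart, which moved it less than 1.5 times. Of the purine genes 2 were called, 1 without a replicate (a lower one without replicate 2), with 55 against 55 lines or with 1 line per near-identical pair, and 0 with lines chosen on replicate 1 or along the lines in between. Of the nitrogen genes 4 were called, 1 to 3 without a replicate, 0 and 1 across replicates and 0 in between, and the single calls without replicate 2 and with lines chosen on replicate 2 were lower. Of the other lists 27 were called, 11 to 17 without a replicate, 1 and 9 across replicates and 0 in between. Of the iron genes 10 were called, 2 with lines chosen on replicate 1 and 0 in between. Arrays as units gave 4305 calls with the replicate block and 3953 with no replicate block, and the tied lines 4388 and 3675.

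The parental count of 2916 was 933 with the replicate block and 1163 to 3145 without a parental array, and the shared count of 685 was 200 and 269 to 702; parental numbers mark no stated pairing. UAH ran from -0.18 to 0.28 without a replicate, turning negative without replicate 2, and turned to -0.21 with lines chosen on replicate 2, and OsRPT1b to -0.07 there. Along the 54 lines in between, the slopes of UREF (-0.06), AMT1-1 (-0.002), NRT2.3 (-0.13), GLU6 (-0.22) and LOX5 (-0.14), in log2 per log2 unit of ALN, had the opposite sign with no call. The narrow ALN range of these lines, centred values of -0.229 to 0.311, limits what the slopes can show. Of 58 named calls, 46 were kept with the 3' minus 5' term and 57 with the replicate block. Genes below the minimum mean of 5 were not tested, so nothing is said of differences there.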
